A study of Mus musculus with 48 samples.

Results

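The mitochondrial ribosome is the particle inside mitochondria that translates the few proteins encoded by mitochondrial DNA, all of them membrane subunits of the respiratory chain and ATP synthase. Its RNAs come from mitochondrial DNA, but every one of its proteins is encoded in the nucleus, made in the cytosol and imported. The genes are named Mrpl for the large subunit, which forms peptide bonds, and Mrps for the small subunit, which decodes the mRNA, although the products of Mrps18a and Mrps30 are now placed in the large subunit. Their mRNAs are known to be abundant in cells that depend on mitochondrial respiration and in growing tumor cells.

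The genes described here are the protein-coding genes of the GENCODE vM21 annotation whose symbol is Mrpl or Mrps followed by a number. There are 78 of them among the 55450 genes of the count table, 49 named Mrpl and 29 named Mrps. Another 5 matching symbols belong to processed pseudogenes and were left out. The members lay on 17 chromosomes, with 11 genes on chromosome 11, 8 on chromosome 17 and 7 on chromosome 6.

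RNA sequencing had been carried out on whole B16-D5 melanomas, a mouse melanoma line grown under the skin of the flank, in 48 libraries of 16 groups with 3 tumors each. In the first experiment (30 libraries, 10 groups) C57BL/6J wild-type (WT) mice were left untreated, or were given a control IgG or an anti-PD-1 antibody that blocks the PD-1 receptor of T cells, and tumors were taken before treatment (0 h), at 6 hours (D0 in the titles) and on days 1 and 3. In the second experiment (18 libraries, 6 groups) WT and iNOS knockout (KO) mice, which carry a deletion in Nos2, the gene of inducible nitric oxide synthase, had the same 3 treatments and were sampled on day 7, a time given by the study and not by the sample titles. Antibody doses were 250 µg per mouse on days 0 and 3, treatment began 8 days after injection of the cells, and the mice had arrived at 4 weeks of age and been housed for 2 weeks.

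The deletion is one of the host, and the labels give none for the injected tumor cells. Nos2 does not check the genotype labels, because it was counted over the whole gene and was low in the second experiment: it had 1.15 to 5.92 CPM (counts per 1000000, scaled by TMM) in the tumors labelled KO and 1.40 to 7.28 CPM in the WT tumors of the same experiment. Library totals ran from 11625862 to 47687872 counts, and the members held 34435 to 113971 counts per library, or 0.147% to 0.317%. Among the 77 members with any count, the smallest number in a library was 38. The share of sampling error in the spread between tumors was not tested. The summed level of olfactory, vomeronasal and taste receptor genes, taken as a measure of low-level reads spread over the genome, was 12.8 to 306 CPM in 45 libraries, 870.4 CPM in KO untreated replicate 1, and, in the WT group given anti-PD-1, 2828 CPM in replicate 3 and 1172 CPM in replicate 4. In whole tumors, fewer cells of a type and less RNA per cell cannot be told apart.

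Some motifs were more frequent at the starts of these genes than at those of other genes. In RefSeq windows of 300 bases (250 before to 50 after the start, GRCm38.p6), found for 69 of the 78 members, the ETS motif CCGGAAG was present on either strand in 26 members (37.7%) and in 13.4% of 16522 protein-coding genes, or 8.86% of all 32851 windows. The NRF1 motif GCGCANGCG, bound by nuclear respiratory factor 1, was present in 16 members (23.2%), against 10% of genes and 6.25% of windows. The YY1 motif AANATGGCG was present in 11 members (15.9%), against 3.83% of genes and 2.38% of windows. None of these 3 motifs contains another, though NRF1 matches on opposite strands can overlap.

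At least 1 of the 3 motifs was present in 43 of the 69 members (62.3%) and in 23.5% of protein-coding genes. The CCAAT box was present in 39.1% of members, 42.1% of genes and 37.4% of windows. The E-box CACGTG was in 7.25% of members, 9.18% of genes and 7.15% of windows, and the TATA box TATAAA in 7.25%, 14.3% and 13.6%. The median GC content was 58.0% in members and 57.0% in all protein-coding genes. A match is a description of the letters, not of a bound site.

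The windows of the 5 members whose level passed the test in the comparisons below, and of Mrpl12, the member with the highest level, are shown 5′ to 3′ on the strand of the gene, with matches to the ETS, NRF1 and YY1 motifs in capitals.
Mrpl33 (chr5:31613701-31614000, plus strand, an ETS match that starts 3 bases before the start site): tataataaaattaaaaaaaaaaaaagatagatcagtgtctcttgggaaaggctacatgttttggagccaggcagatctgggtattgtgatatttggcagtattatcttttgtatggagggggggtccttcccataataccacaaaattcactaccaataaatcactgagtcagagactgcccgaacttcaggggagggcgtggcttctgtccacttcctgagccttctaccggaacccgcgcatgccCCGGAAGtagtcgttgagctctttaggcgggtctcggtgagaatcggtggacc
Mrpl41 (chr2:24975049-24975348, minus strand, none of the 3 motifs): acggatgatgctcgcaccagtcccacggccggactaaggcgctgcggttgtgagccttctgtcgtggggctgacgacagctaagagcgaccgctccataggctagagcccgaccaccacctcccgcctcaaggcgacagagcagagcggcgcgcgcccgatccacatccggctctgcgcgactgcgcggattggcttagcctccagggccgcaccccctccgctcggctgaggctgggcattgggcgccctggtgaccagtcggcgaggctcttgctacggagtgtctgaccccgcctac
Mrpl57 (chr14:57825989-57826288, plus strand, an NRF1 and an ETS match): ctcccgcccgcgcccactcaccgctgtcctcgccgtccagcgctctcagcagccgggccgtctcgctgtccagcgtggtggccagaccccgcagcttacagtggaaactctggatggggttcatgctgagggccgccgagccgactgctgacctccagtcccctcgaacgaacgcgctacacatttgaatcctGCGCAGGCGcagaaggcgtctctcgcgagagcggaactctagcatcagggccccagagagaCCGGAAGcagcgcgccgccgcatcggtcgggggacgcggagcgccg
Mrpl14 (chr17:45686099-45686398, plus strand, an NRF1 match after the start site): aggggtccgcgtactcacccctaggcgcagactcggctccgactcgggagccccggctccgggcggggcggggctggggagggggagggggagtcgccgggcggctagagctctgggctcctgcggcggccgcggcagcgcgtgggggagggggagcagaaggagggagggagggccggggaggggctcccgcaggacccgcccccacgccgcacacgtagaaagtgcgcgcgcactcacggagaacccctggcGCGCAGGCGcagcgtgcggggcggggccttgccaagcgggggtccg
Mrpl30 (chr1:37890227-37890526, plus strand, NRF1 matches in both orientations): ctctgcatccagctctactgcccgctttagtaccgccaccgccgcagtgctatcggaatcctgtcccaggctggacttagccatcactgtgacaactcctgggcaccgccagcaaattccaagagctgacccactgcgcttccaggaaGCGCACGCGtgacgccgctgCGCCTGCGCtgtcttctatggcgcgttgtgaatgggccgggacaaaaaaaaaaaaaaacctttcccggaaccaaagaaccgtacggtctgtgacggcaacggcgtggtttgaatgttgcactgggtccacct
Mrpl12 (chr11:120484387-120484686, plus strand, an NRF1 match): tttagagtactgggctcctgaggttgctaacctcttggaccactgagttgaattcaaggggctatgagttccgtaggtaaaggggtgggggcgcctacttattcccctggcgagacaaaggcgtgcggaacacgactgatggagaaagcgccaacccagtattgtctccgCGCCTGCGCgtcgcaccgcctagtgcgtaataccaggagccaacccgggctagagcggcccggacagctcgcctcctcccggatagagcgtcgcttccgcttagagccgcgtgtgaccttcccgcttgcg
The 6 windows differ in base composition, from 47% GC in Mrpl33 to 78.0% in Mrpl14.

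A neighbour read in the opposite direction was also more frequent among the members, though most had none. A start of another protein-coding gene lay within 1000 bp upstream on the other strand for 18 of the 78 members (23.1%), compared with 6.79% of 21951 protein-coding genes. Mrpl30 started 66 bp from Mitd1, Mrpl57 49 bp from Ska3, Mrpl49 59 bp from Fau, and Mrps12 172 bp from Sars2, which encodes the mitochondrial seryl-tRNA synthetase.

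Exons shared with other genes limit a few members. Mrpl53 was listed at 0 in all 48 libraries, and 88.0% of its exonic bases are also exons of Gm42688 on the same strand, which had 9 to 105 counts per library and a median of 53.5 (Gm42688 was chosen after its values were seen). Mrps34 shares 37% of its exonic bases with genes on its own strand, mainly Nme3, and Mrps18c 23.2%, mainly Gm43511. The values of these genes are uncertain for that reason. Of the 5 pseudogenes, Mrpl23-ps1 had the highest median, 76.0 counts, and the other 4 had medians of 0 to 6.0 counts.

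All 77 detected members passed the filter on low counts in both experiments. Their median levels ran from 5.33 to 253 CPM in the first experiment and from 6.37 to 251 CPM in the second, with medians over genes of 20.6 and 23.5 CPM. Mrpl12, which encodes the stalk protein of the large subunit, was far above the rest: 165 CPM per kb of exon in the first experiment and 164 in the second. Next per kb of exon were Mrpl52 with 53.3 and 59.8 CPM per kb and Mrps21 with 43.3 and 59.6 CPM per kb.

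The lowest levels per kb of exon in the first experiment were those of Mrpl33 (1.93 CPM per kb), Mrps16 (2.03) and Mrps31 (2.11), and the same genes were lowest in the second, with 2.31, 2.46 and 2.05 CPM per kb. The low place of Mrpl33 rests on its annotation, since its exons cover 7326 bp and its median coding transcript is 478 bp. Per kb of coding transcript it had 29.5 CPM per kb and ranked 19 of 78, whereas Mrps16 ranked 77, above Mrpl53 alone, and Mrpl12 and Mrpl52 stayed in places 1 and 2.

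The spread between tumors differed from member to member. The standard deviation (SD) of log2 CPM over all libraries had a median of 0.32 over genes in the first experiment and 0.30 in the second. Mrps17 (SD 0.16) and Mrps9 (0.17) varied least in the first experiment, and Mrpl9 (0.12), Mrps9 (0.14) and Mrps25 (0.14) in the second. In the first experiment the SD was largest for Mrps12 (0.70), a protein of the decoding region, Mrps14 (0.62) and Mrpl12 (0.60), and in the second for Mrpl33 (0.64), Mrps16 (0.59) and Mrpl41 (0.57).

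Single libraries lay far from the others of their group for some members of the first experiment. Mrps14 had 1.23 CPM in anti-PD-1 replicate 2 on day 1, against 8.33 and 5.48 CPM in replicates 4 and 5. IgG replicate 6 at 6 hours had the lowest library total of the first experiment, 25574203 counts. In this library Mrpl12 had 36.1 CPM, against 232 and 303 CPM in the other IgG tumors of that time. Mrps12 had 1.79 CPM there against 15.2 and 18.1 CPM, and Mrps36, whose product is now assigned to the 2-oxoglutarate dehydrogenase complex, had 2.63 CPM against 14.4 and 20.9 CPM. That library was below both others of its group for 56 of 77 members and above both for 12, among them Mrpl1 (29 against 17.8 and 19 CPM) and Mrps9 (32.8 against 22.4 and 26.6 CPM).

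The level of the whole group in a tumor was taken as the mean log2 CPM of the 77 detected members. In the first experiment it ranged from 3.83 (IgG replicate 6 at 6 hours) to 4.83 (untreated replicate 4 at 6 hours). The untreated tumors at 0 h alone covered 3.87 to 4.73, and replicate 3, the lowest of them, was below both others for 74 of 77 members. In the same library the markers of keratinocytes, skeletal muscle and fibroblasts were high, with summed levels up to 6029, 7675 and 9267 CPM in that group. Their part in the low member level was not tested.

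**Figure D1:**
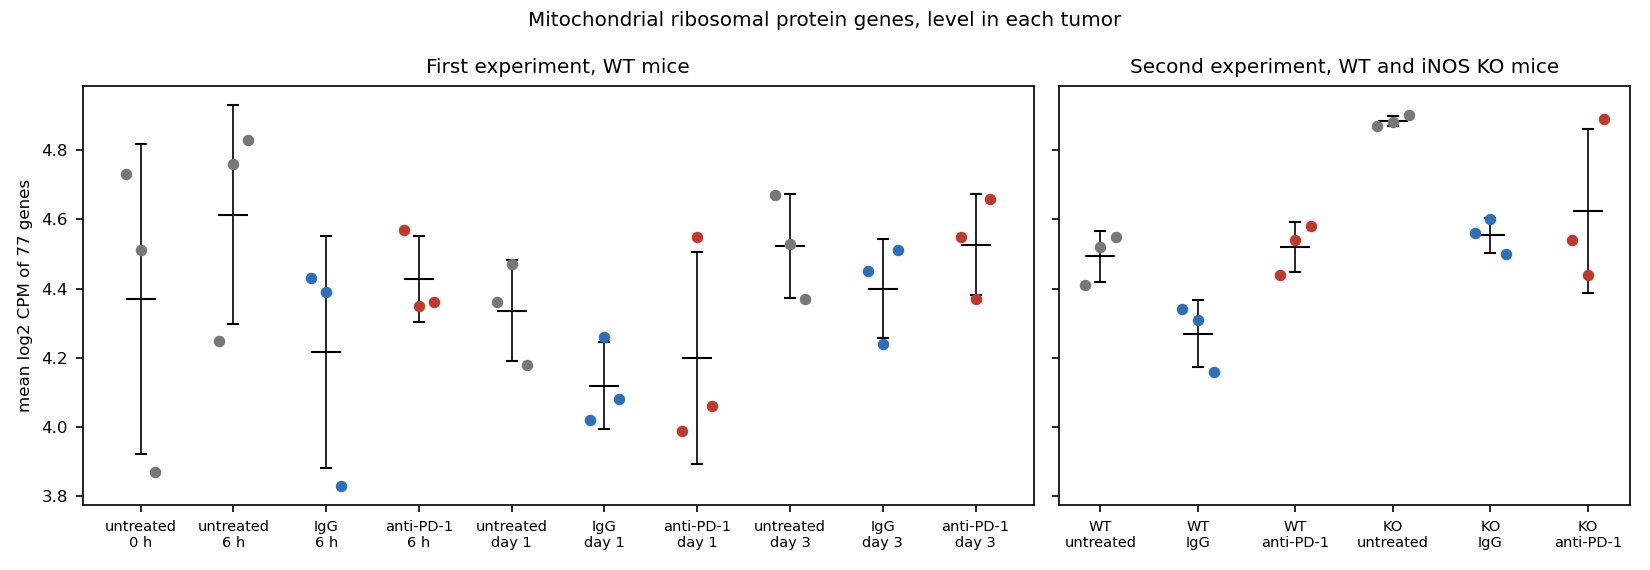
Mean log2 CPM of the 77 detected mitochondrial ribosomal protein genes (vertical axis) in each tumor, by group (horizontal axis), with each experiment scaled on its own. Points are tumors (grey untreated, blue IgG, red anti-PD-1), the horizontal line is the group mean and the bar 1 SD (n = 3). The KO untreated tumors lie together between 4.87 and 4.90, while the 0 h tumors spread from 3.87 to 4.73.

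The comparisons of the first experiment ask what anti-PD-1, or the IgG used as its control, changed within 3 days in WT mice. No member passed an adjusted p of 0.05 in any of the 8 comparisons (edgeR quasi-likelihood test with Benjamini-Hochberg adjustment over 26848 genes), where 0% of all genes passed as well, and DESeq2 also called 0 members in each.

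At 6 hours the median log2 fold change of the members was 0.16 for anti-PD-1 against IgG, −0.18 for anti-PD-1 against untreated and −0.36 for IgG against untreated. At an unadjusted p under 0.05 there was 1 member against IgG (Mrpl1, lower; 4.38% of all genes), 2 for anti-PD-1 against untreated (3.30% of all genes) and 11 lower members for IgG against untreated. The last is 14.3% of the members, and lower genes at that p were 1.89% of all genes. They were 3.36% of the 10827 protein-coding genes with a mean of at least 5 CPM. For IgG against untreated, the members' median was −0.43 with a coding transcript under 1 kb and −0.34 at 1 to 2 kb. It was −0.25, −0.11 and −0.41 for the 9, 7 and 2 members in the longer classes. Over all genes at 5 CPM or more it ran from −0.18 under 1 kb to 0.06 at 5 kb or more. The part of transcript length was not tested.

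Mrpl48 had 23.1, 20.9 and 16.3 CPM after IgG and 23.5, 28.9 and 31.5 CPM in untreated tumors. Mrpl45, which lies at the exit of the peptide tunnel and ties the ribosome to the inner membrane, had 22.7, 20.6 and 18.3 CPM after IgG and 22.4, 35 and 32.1 CPM in untreated tumors. The IgG tumors lay below the untreated ones for Mrpl48, and the groups overlapped for Mrpl45 by 1 tumor. Their log2 fold changes were −0.48 (standard error, SE, 0.173) and −0.54 (SE 0.212), both with an adjusted p of 0.760 in edgeR, and Mrps5 had −0.43 (SE 0.166) with the same adjusted p. For anti-PD-1 the lowest p were those of Mrpl46 (−0.55), Mrpl33 (−0.43) and Mrpl57 (−0.67) against untreated and of Mrpl1 (−0.42), Mrpl48 (0.32) and Mrpl20 (0.50) against IgG. Without IgG replicate 6 the median of the members was −0.24 in place of −0.36.

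On day 1 the median was 0.12 for anti-PD-1 against IgG, with 1 member at an unadjusted p under 0.05 (3.64% of all genes), and −0.23 for IgG against untreated, with 2 members (5.43% of all genes). On day 3 the medians were 0.12 and −0.12, with 0 members in each comparison against 2.14% and 2.64% of all genes. The lowest p of day 1 was that of Mrpl9, with 24.4, 22 and 19.2 CPM after anti-PD-1 and 14.9, 17.5 and 16.1 CPM after IgG, groups that did not overlap. Its log2 fold change was 0.43 (SE 0.153, adjusted p = 1 in edgeR). Next came Mrps31 (0.57) and Mrps35 (0.30) for anti-PD-1 against IgG, and Mrpl45 (−0.51), Mrps35 (−0.41) and Mrpl30 (−0.49) for IgG against untreated. On day 3 the lowest p were those of Mrps5 (0.28), Mrpl2 (0.43) and Mrpl1 (0.29) after anti-PD-1, and of Mrpl55 (−0.61), Mrps23 (−0.35) and Mrps25 (−0.27) after IgG.

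Between 0 h and day 3 the untreated tumors had a median change of 0.13, with 0 members at an unadjusted p under 0.05 compared with 6.89% of all genes. The lowest p were those of Mrps18c (0.68), Mrps34 (0.35) and Mrpl58 (0.30). The sign of the median rested on 1 tumor: without untreated replicate 3 of 0 h the median was −0.05.

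The second experiment asks how the host's iNOS bears on the response. In untreated tumors 5 members were higher in KO than in WT mice and none was lower. They were large-subunit genes: Mrpl33, Mrpl41, Mrpl57, Mrpl14 and Mrpl30. They are 6.49% of the 77 members tested, and higher genes that passed were 0.584% of the 30837 genes tested.

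Mrpl33, a small protein of the large subunit, had 49.0, 57.9 and 28.3 CPM in KO untreated replicates 1, 2 and 4 and 17, 18.2 and 15.7 CPM in the WT untreated tumors. Every KO value was above every WT value, and KO replicate 4 was the lowest of the KO tumors. The log2 fold change was 1.41 (SE 0.257, adjusted p = 0.0142 in edgeR).

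Mrpl41, which is specific to mitochondria, had 72.6, 47.2 and 43.4 CPM in KO and 20.8, 22.5 and 22.3 CPM in WT untreated tumors. Mrpl57, likewise without a bacterial counterpart, had 19.7, 23.9 and 16.2 CPM in KO and 8.90, 8.32 and 8.41 CPM in WT. In neither gene did the groups overlap, and the WT tumors lay close together in both. The log2 fold changes were 1.31 (SE 0.256, adjusted p = 0.0224 in edgeR) and 1.22 (SE 0.206, adjusted p = 0.00989 in edgeR).

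Mrpl14, a conserved protein at the face that meets the small subunit, had 42.9, 37.8 and 36.7 CPM in KO and 18.2, 19.5 and 19.4 CPM in WT. Mrpl30 had 64.2, 66.4 and 54.1 CPM in KO and 30.6, 34.3 and 33.8 CPM in WT. Again all KO tumors were above all WT tumors. The log2 fold changes were 1.04 (SE 0.200, adjusted p = 0.0204 in edgeR) and 0.91 (SE 0.189, adjusted p = 0.0307 in edgeR).

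**Figure D2:**
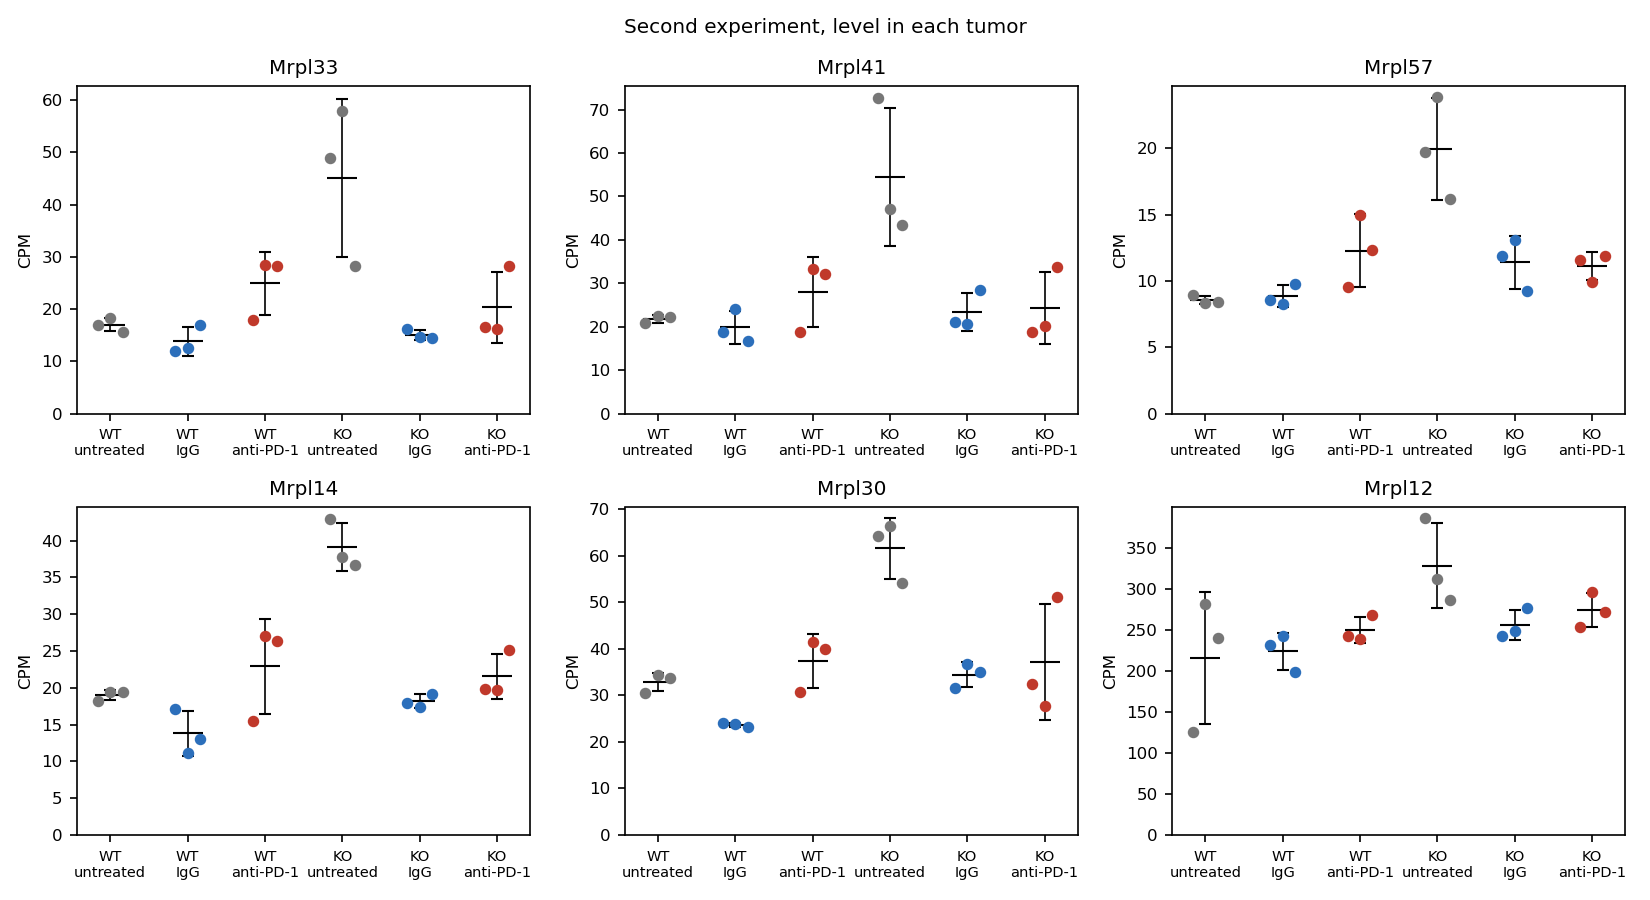
CPM (vertical axes, from 0) of the 5 members that passed the test in KO against WT untreated tumors and of Mrpl12, in each tumor of the second experiment, by group (horizontal axes). Points are tumors, the line is the mean and the bar 1 SD (n = 3). The KO untreated tumors are above the WT untreated tumors in all 6 genes, and for Mrpl33 KO anti-PD-1 replicate 3 and WT anti-PD-1 replicates 3 and 4, with 28.2, 28.5 and 28.3 CPM, reach the lowest KO untreated tumor.

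The shift was wider than these 5 genes. All 3 KO values were above all 3 WT values for 40 of 77 members (51.9%) and below for 0. The first pattern was seen in 9.73% of all genes tested and in 10.4% of the 10772 protein-coding genes with a mean of at least 5 CPM. At an unadjusted p under 0.05, 33 members (42.9%) were higher and 0 lower, and 13.1% of all genes and 8.48% of the protein-coding genes at that level were higher. The median log2 fold change was 0.39 over the members, −0.12 over those protein-coding genes and 0.49 over all genes tested, most of which are low.

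By role, among the genes of the stalk and its base, Mrpl12 had a log2 fold change of 0.61 (adjusted p = 0.286 in edgeR). It had 386, 312 and 286 CPM in KO and 126, 281 and 239.6 CPM in WT. Mrpl10 had −0.04 and Mrpl11 0.52, and differences between genes were not tested. Of the genes along the peptide tunnel and its exit, Mrpl4 had 0.03 and Mrpl45 −0.04, and Mrpl3, a conserved protein of the core, had 0.27. Mrpl58, a peptidyl-tRNA hydrolase that frees stalled ribosomes, had 0.40, and Mrpl44, which resembles ribonuclease III, had 0.59. None of these passed the adjusted test.

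Of the genes named Mrps 0 of 29 passed, and 10 were higher at an unadjusted p under 0.05, with a median of 0.29. Of those named Mrpl it was 5 of 48 and 23, with a median of 0.41. The difference between these sets was not tested, and the first holds Mrps18a, Mrps30 and Mrps36. Mrps16 had 0.93, Mrps12 0.51, Mrps34, which the small subunit needs for its stability, 0.33, Mrps2 −0.22, Mrps5 −0.20 and Mrps7 0.17. The paralogs Mrps18a, Mrps18b and Mrps18c had 0.10, −0.06 and 0.39, and Mrps27, Mrps35 and Mrps36 had 0.18, 0.16 and 0.49.

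**Figure D3:**
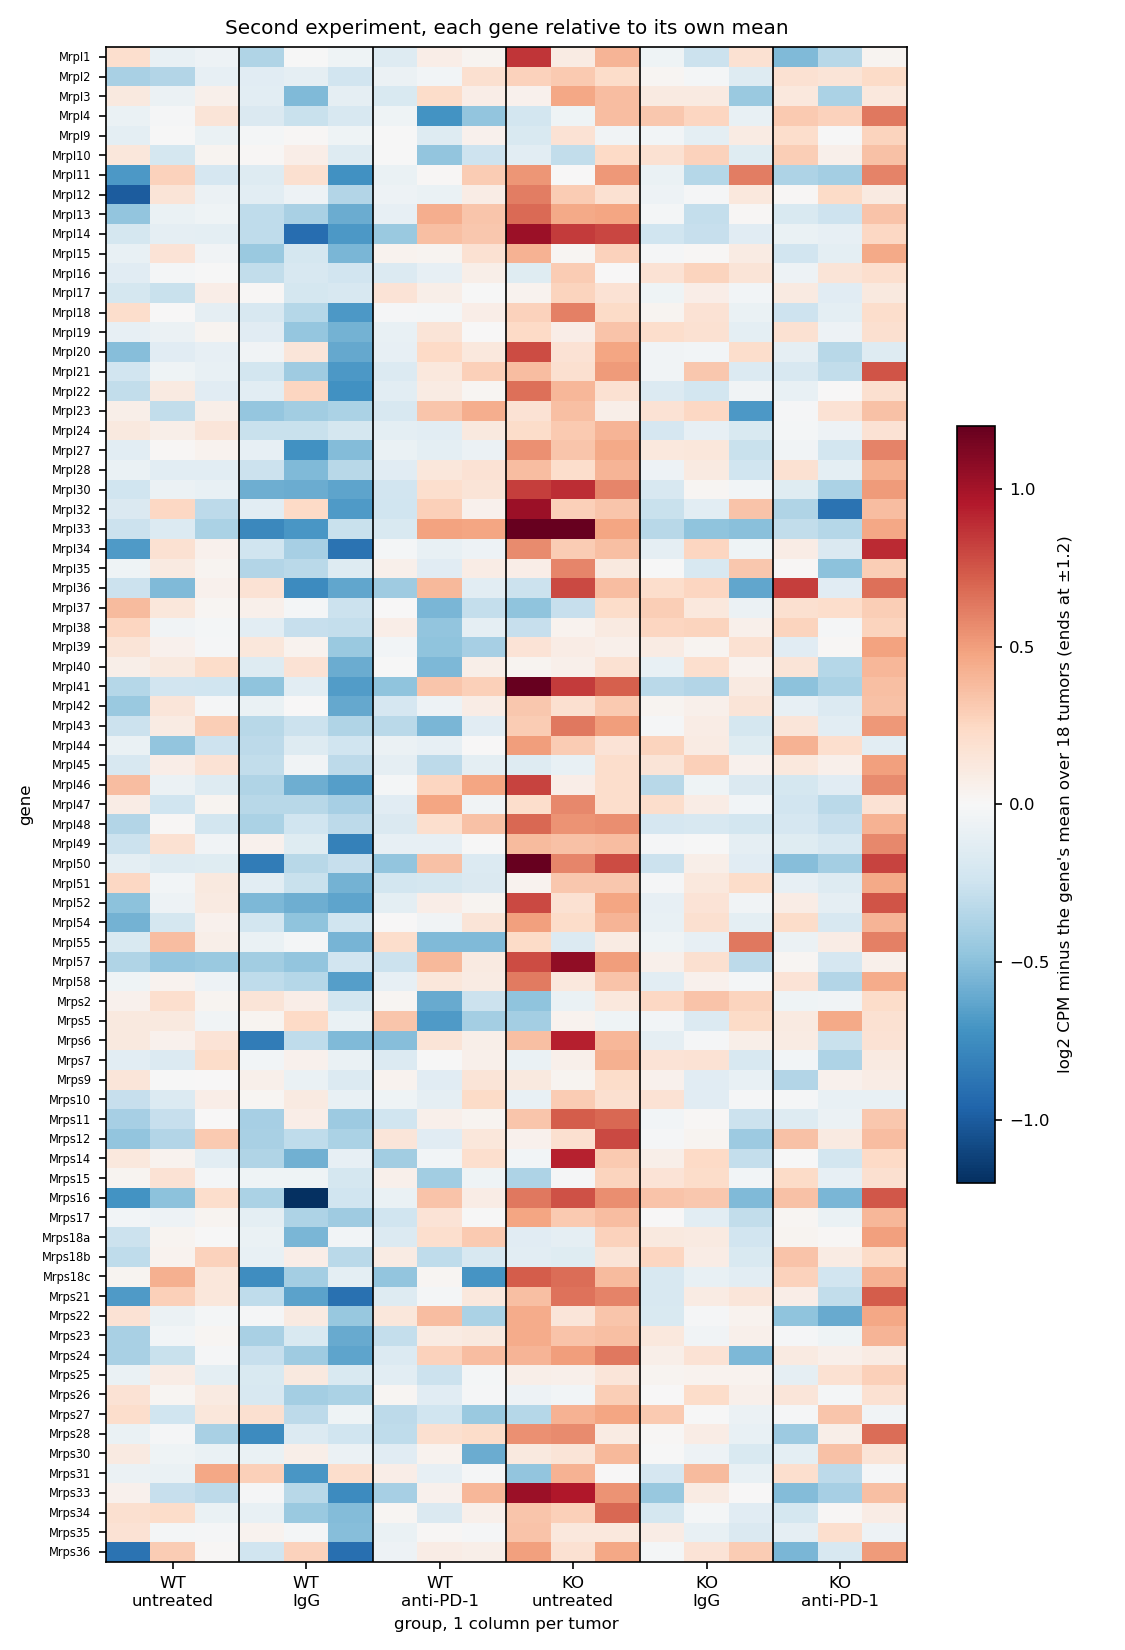
Log2 CPM of each of the 77 detected members (rows) in each of the 18 tumors of the second experiment (columns, in groups of 3), minus the mean of that gene over the 18 tumors; red is higher, blue lower, and the colors end at ±1.2. The KO untreated tumors and KO anti-PD-1 replicate 3 are mostly red, and the WT IgG tumors mostly blue.

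Short transcripts had higher fold changes in this comparison, among the members and among all genes. The median log2 fold change was 0.52 for the 35 members with a coding transcript under 1 kb and 0.22 for the 24 of 1 to 2 kb. It was 0.27, 0.24 and 0.20 for the 9, 7 and 2 members in the longer classes. Over all genes with a mean of at least 5 CPM it fell from 0.08 under 1 kb to −0.32 at 5 kb or more, and the members were above it in each class. The part of transcript length in the members' change was not tested.

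**Figure D4:**
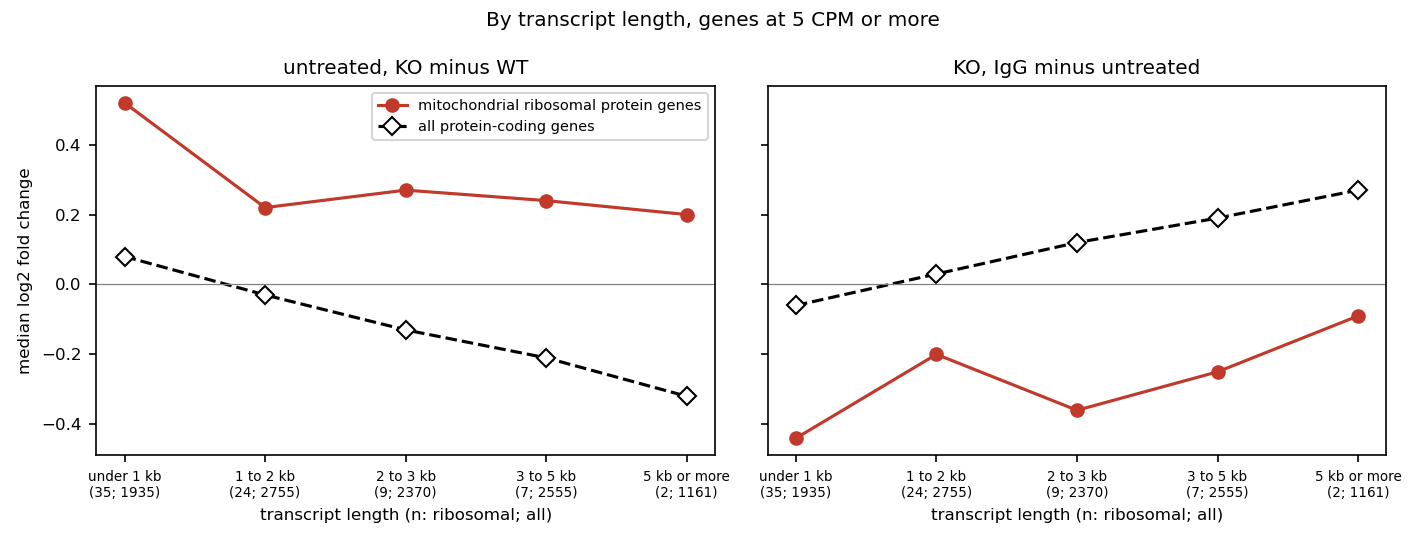
Median log2 fold change (vertical axes) by length of the median coding transcript (horizontal axes, with the number of members and of all genes) for KO against WT untreated tumors (left) and for IgG against untreated tumors in KO mice (right), over genes with a mean of at least 5 CPM. Red circles are the mitochondrial ribosomal protein genes and open diamonds all genes with a coding transcript. The members are above all genes in each class on the left, with 0.52 against 0.08 under 1 kb, and below them in each class on the right, with −0.44 against −0.06.

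Other genes of respiration and translation were described by the same counts. Of the 83 nuclear respiratory chain subunits tested, 15 passed, all higher, with a median of 0.61. Of the 83 cytosolic ribosomal proteins, 27 passed, all higher, with a median of 0.86. The mitochondrial aminoacyl-tRNA synthetases, which charge the tRNAs used by this ribosome, had 0 of 17 past the test (1 at an unadjusted p under 0.05) and a median of −0.05, and the 16 mitochondrial translation factors had 1 higher and a median of 0.01. The 25 assembly and rRNA processing factors had 0 past the test (3 higher at an unadjusted p under 0.05) and a median of 0.26. Of the 5 subunits with other names 1 passed, higher.

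Several measures of the tumors moved with this comparison. The summed level of 6 fibroblast markers was 637 to 865 CPM in KO and 876 to 3974 CPM in WT untreated tumors, and that of 8 proliferation genes 1558 to 2001 against 2373 to 2682 CPM. The 8 T cell markers summed to 9.08 to 20.2 CPM in KO and 3.61 to 7.92 CPM in WT, with 8 of 8 fold changes above 0 and a median of 1.35, and the 7 adipocyte markers to 40.1 to 95.0 against 17.6 to 33.1 CPM, with 7 of 7 above 0 and a median of 2.00. Leukocyte markers overlapped, with 109 to 174 CPM in KO and 104 to 233 CPM in WT. Macrophage markers also overlapped, with 249 to 364 against 293 to 641 CPM, and endothelium markers were lower in KO, with 169 to 207 against 215 to 248 CPM. The 10 melanoma markers overlapped, with 14314 to 18979 against 15958 to 17814 CPM, and no marker of these lists was at 0. Their part in the members' change was not tested. The receptor background of KO replicate 1 was 870.4 CPM, and those of KO replicates 2 and 4 were 76.2 and 64.4 CPM, against 16.3 to 35.5 CPM in WT.

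With the receptor background as a covariate 0 members passed in edgeR, and the median was 0.32. Without KO replicate 1 the number was 4 and the median 0.39, while with DESeq2 15 members passed. Without a WT replicate the number was 2 (replicate 1), 3 (replicate 2) or 3 (replicate 3). The shares of all genes past the test under these alternatives are not given here, so these numbers cannot be set against them.

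In KO mice 2 members were lower after IgG than in the untreated tumors, a comparison that shares the KO untreated tumors with the one above. Mrpl33 had 16.2, 14.6 and 14.4 CPM after IgG, against 49.0, 57.9 and 28.3 CPM, a log2 fold change of −1.58 (SE 0.259, adjusted p = 0.0182 in edgeR). Mrpl14 had 17.9, 17.4 and 19.2 CPM, against 42.9, 37.8 and 36.7 CPM, a change of −1.11 (SE 0.200, adjusted p = 0.0272 in edgeR). In both genes the groups did not overlap, and the IgG tumors were near the WT untreated level.

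These 2 genes are 2.60% of the members, and lower genes that passed were 0.188% of all genes. All IgG tumors were below all untreated ones for 40 members (51.9%), for 9.53% of all genes and for 10.1% of the protein-coding genes at 5 CPM or more. At an unadjusted p under 0.05, 27 members (35.1%) were lower and 1, Mrps2, was higher, with 12.7% of all genes lower. The median was −0.33 over members, 0.12 over those protein-coding genes and −0.45 over all genes.

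The 6 fibroblast markers were at 2224 to 3706 CPM in the KO IgG tumors, above the KO untreated range, with 6 of 6 higher at an unadjusted p under 0.05. Proliferation genes summed to 2254 to 2548 CPM, also above the KO untreated range, and macrophage markers had 8 of 8 fold changes above 0 with a median of 0.65. Their part was not tested. No member passed with the background covariate or without KO IgG replicate 2, and 1 passed without KO IgG replicate 1 or 3. Without KO untreated replicate 4 the number was 4, and in DESeq2 it was 13. For these alternatives the shares of all genes past the test are not given here.

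In WT mice IgG against untreated gave a smaller shift in the same direction, with 0 members past the test (0% of all genes, 0 in DESeq2). At an unadjusted p under 0.05, 15 members (19.5%) were lower, compared with 2.29% of all genes and 5.06% of protein-coding genes at 5 CPM or more, and 25 (32.5%) had no overlap between the groups, compared with 6.05% and 13.6%. The median was −0.23, and −0.05 over those protein-coding genes. Mrps6 had 6.48, 9.37 and 8.02 CPM after IgG and 12.6, 12 and 13 CPM in untreated tumors, which did not overlap (log2 fold change −0.66, SE 0.216, adjusted p = 0.565 in edgeR). Mrps26 had −0.43 and Mrpl24 −0.35, with the same adjusted p.

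Markers of other cells moved with this shift. T cell markers summed to 16.6 to 26.4 CPM after IgG and 3.61 to 7.92 CPM in untreated tumors, with 8 of 8 fold changes above 0 (4 at an unadjusted p under 0.05, median 2.07). Leukocyte markers had 8 of 8 above 0 (5 at that p, median 1.22), with 202 to 589 against 104 to 233 CPM, and adipocyte and fibroblast markers had 5 and 2 higher at that p. Melanoma markers had 0 of 10 above 0 (2 lower at that p, median −0.35), with 10404 to 15384 against 15958 to 17814 CPM. Their part in the members' shift was not tested.

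Between IgG-treated tumors of KO and WT mice the members were higher in KO for 74 of 77 genes in the fitted fold change, but 0 passed the adjusted test (0% of all genes, 0 in DESeq2). All KO values were above all WT values for 32 members (41.6%), compared with 5.70% of all genes and 12.6% of protein-coding genes at 5 CPM or more, and 18 (23.4%) were higher at an unadjusted p under 0.05, compared with 2.15% and 4.69%. The median was 0.28, and 0.04 over those protein-coding genes. These groups do not include the tumors with the raised receptor background, and their values were 12.8 to 41.6 CPM in KO and 56.3 to 234 CPM in WT.

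Mrpl19 had 40.1, 39.4 and 32 CPM in KO and 31.5, 25.2 and 23.5 CPM in WT IgG tumors, a log2 fold change of 0.48 (SE 0.153, adjusted p = 0.626 in edgeR). Mrps26 had 45.1, 52.4 and 46.8 CPM in KO and 39.4, 33.8 and 34.5 CPM in WT, a change of 0.42 (SE 0.140, adjusted p = 0.626 in edgeR). All KO tumors were above all WT tumors in both genes. The next lowest p was that of Mrpl52 (0.60, SE 0.206, adjusted p = 0.626 in edgeR). The WT IgG tumors had the lowest member levels of the second experiment, 4.16, 4.31 and 4.34. The fold changes of the 8 leukocyte markers were all below 0, with a median of −0.74 and 1 at an unadjusted p under 0.05. T cell markers summed to 5.44 to 14.9 CPM in KO and 16.6 to 26.4 CPM in WT, with 0 of 8 above 0. Melanoma markers had 10 of 10 above 0 (median 0.37), with 15542 to 16540.3 CPM in KO and 10404 to 15384 CPM in WT. The part of these markers in the members' difference was not tested.

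Anti-PD-1 against IgG in WT mice gave 0 members past the test (0% of all genes, 0 in DESeq2). The median was 0.24, and 20 members (26%) were higher at an unadjusted p under 0.05, compared with 10.6% of all genes. Of the protein-coding genes at 5 CPM or more, 4.85% were higher and 15.8% lower at that p, and their median was −0.17. No overlap with the higher group after anti-PD-1 was seen for 26 members (33.8%), 9.02% of all genes and 5.97% of those protein-coding genes. Leukocyte (median −0.99, 4 of 8 lower at that p), macrophage (−1.17, 3 of 8) and fibroblast markers (−1.35, 2 of 6) were below 0 in every gene. T cell markers overlapped, with sums of 17.8 to 35.7 CPM after anti-PD-1 and 16.6 to 26.4 CPM after IgG. The part of all these markers was not tested. Mrpl14 had 15.5, 27 and 26.3 CPM in replicates 2, 3 and 4 after anti-PD-1 and 17.1, 11.2 and 13.1 CPM after IgG, so that replicate 2 lay within the IgG range. Its log2 fold change was 0.73 (SE 0.201, adjusted p = 0.305 in edgeR), and Mrpl13 and Mrpl30 had 0.66 each with the same adjusted p.

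Replicates 3 and 4, the high ones for Mrpl14, are those with receptor backgrounds of 2828 and 1172 CPM. They also had the lowest library totals of the series, 11625862 and 18797177 counts. Replicate 3 was above both others of its group for 27 members and below both for 31. Replicate 4 was above both for 34 and below both for 5. With the receptor background as a covariate the median of the members was 0.21. Without replicate 2, which leaves only replicates 3 and 4 in this group, the number past the test was 5. The share of all genes past the test in that fit is not given here, so the 5 cannot be set against it. Without replicate 4 the median was 0.07.

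In KO mice anti-PD-1 against IgG gave 0 members past the test or at an unadjusted p under 0.05 (0% and 1.94% of all genes, 0 in DESeq2), with a median of 0.10. The lowest p were those of Mrps12 (0.41), Mrpl33 (0.43) and Mrpl2 (0.23), all with an adjusted p of 1 in edgeR. The anti-PD-1 tumors differed among themselves: replicate 3 was above both others for 63 of 77 members and had a level of 4.89, against 4.54 and 4.44. It had 28.2 CPM of Mrpl33, 33.8 of Mrpl41 and 51.2 of Mrpl30, against 16.6 and 16.1, 18.7 and 20.2, and 32.5 and 27.7 CPM in replicates 1 and 2. Its receptor background was 18.5 CPM, against 16 and 17.4 CPM in the other KO anti-PD-1 tumors. Without it the median was −0.06.

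KO against WT after anti-PD-1 gave 0 members past the test in edgeR (0% of all genes) and 1, Mrpl4, in DESeq2. At an unadjusted p under 0.05, 7 members (9.09%) were higher, compared with 5.69% of all genes and 15.9% of protein-coding genes at 5 CPM or more. Mrpl4 had 40.3, 39.1 and 50.1 CPM in KO and 31.2, 19.7 and 23.3 CPM in WT, which did not overlap (log2 fold change 0.80, SE 0.189, adjusted p = 0.123 in edgeR). Mrpl43 had 0.53 and Mrpl10 0.47. Without WT replicate 2 the number past the test was 6. That fit leaves WT replicates 3 and 4, with receptor backgrounds of 2828 and 1172 CPM. The share of all genes past the test is not given here for that fit or for DESeq2.

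The difference between the anti-PD-1 effects of the 2 genotypes, tested as an interaction, gave 0 members past the test (0% of all genes, 0 in DESeq2). At an unadjusted p under 0.05 there were 2 members, Mrpl47 (−0.68) and Mrpl13 (−0.58), compared with 7.42% of all genes. The median was −0.19 over the members, 0.19 over protein-coding genes at 5 CPM or more and −0.47 over all genes tested. Mrpl30, next by p, had −0.55. The KO and WT effects of anti-PD-1 were thus not shown to differ for any member.

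Side by side, the median of the members was below 0 for IgG against untreated in all 5 groups where both were measured: −0.36, −0.23 and −0.12 at 6 hours, day 1 and day 3, and −0.23 and −0.33 in WT and KO mice on day 7. Over the alternatives the day 3 value ran from −0.17 to 0.01, and the other 4 stayed below 0. In the same order, protein-coding genes with a mean of at least 5 CPM had medians of −0.06, −0.07, −0.04, −0.05 and 0.12. For anti-PD-1 against IgG those genes had medians of 0.03, 0.04, 0.08, −0.17 and 0.01. The medians of the members for anti-PD-1 against IgG were 0.16, 0.12, 0.12, 0.24 and 0.10. The 6-hour value was 0.06 without IgG replicate 6 and 0.01 with the background covariate, and the day 3 value 0.05 without anti-PD-1 replicate 5 or IgG replicate 3 and 0.01 with the covariate. The day 1 value was −0.09 without anti-PD-1 replicate 4, and the last, in KO mice, −0.06 without anti-PD-1 replicate 3. The IgG tumors are shared by both sets of comparisons.

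**Figure D5:**
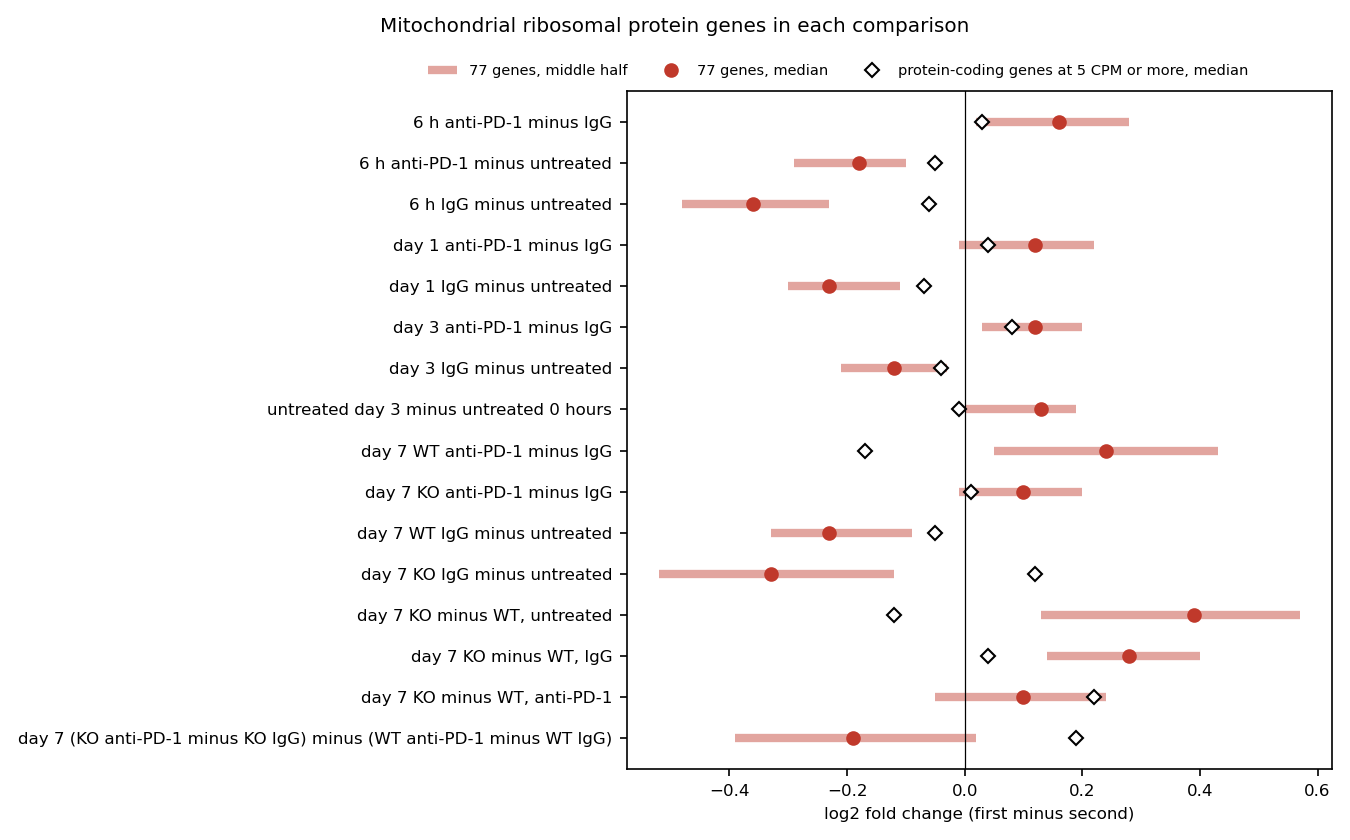
Log2 fold change (horizontal axis) in the 16 comparisons (vertical axis). Red points are the median of the 77 members and red bars their interquartile range, and open diamonds the median of protein-coding genes with a mean of at least 5 CPM. Members lie farthest from the other genes in KO against WT untreated tumors, with 0.39 against −0.12, and in IgG against untreated tumors of KO mice, with −0.33 against 0.12.

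Within groups, tumors with high member levels were high in related genes as well. The tumor with the highest member level was also the highest of its 3 in melanoma cell markers in 15 of 16 groups, in nuclear respiratory chain subunits in 14, in cytosolic ribosomal proteins in 12, in subunits with other names in 12 and in proliferation genes in 11. It was the highest in mitochondrial aminoacyl-tRNA synthetases in 2 of 16 and in leukocyte markers in 3. It was the lowest in adipocyte markers in 10, in neutrophil markers in 9 and in fibroblast, macrophage, keratinocyte and endothelium markers in 8 each. In T cell markers it was the highest in 6 and the lowest in 3. In mitochondrial translation factors it was the highest in 10 and the lowest in 3, and in assembly and rRNA processing factors in 10 and 2. In genes of mitochondrial DNA transcription and maintenance it was the highest in 9 and the lowest in 3. In nuclear regulators of mitochondrial genes the counts were 9 and 1. With 3 tumors in a group, a list unrelated to the members would be equally likely to peak in any of them. Such a list would share the members' top tumor in some groups, and the counts were not tested against that. These counts are descriptions of tumors that share a library and its depth.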

How the data were processed

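The authors extracted total RNA from fresh tumor tissue, made strand-specific libraries (NuGEN Universal Mouse kit) and deposited a table of counts per gene, whole numbers that are not normalized. The submitters' processing notes name cutadapt 1.8.1, STAR 2.7.7a, RSEM 1.3.0 and the mm10 build; the study names RSEM as the program that gave the counts, and the name of the deposited table points to another counter, so the program is uncertain. Groups came from the sample titles, because the genotype field reads WT for every sample. Times of 6 hours (titled D0) and day 7 came from the study.

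Each experiment was fitted alone in edgeR 4.0.16 (R 4.3.3) with TMM scaling, filterByExpr (minimum count 10) and the quasi-likelihood test over all its groups, with Benjamini-Hochberg adjustment over all genes and a threshold of 0.05. CPM was the count divided by the TMM-scaled library total. The experiments were not compared with each other. Each library is 1 tumor; nothing ties tumors across groups. Alternatives were DESeq2 1.42.0, its size factors, no filter, a replicate block, the receptor background as a covariate or subtracted, a fit of only the groups compared, and leaving out each replicate. The fit was tested on simulated data. Tables were made with Python 3.11.15, numpy 2.4.6 and pandas 2.3.3, and figures with matplotlib 3.10.9.

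The members and the gene lists were chosen with earlier results of these data known. Genes named with values were those that passed the test, the 3 with the lowest p where none passed, the 3 highest and lowest per kb of exon, the 3 with the largest and smallest spread, and a set chosen by role. Promoter windows came from RefSeq, and 9 of 78 members had none.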

Additional observations from a re-analysis of the deposited data

Results flagged for a closer look

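In 2 pairs of comparisons a member moved in opposite directions with no overlap between the groups in either comparison, and in both cases the difference between the comparisons was not tested. Mrpl20 had a log2 fold change of 0.73 for KO against WT in untreated tumors and of −0.29 for KO against WT after anti-PD-1. Mrpl1 had −0.42 for anti-PD-1 against IgG at 6 hours and 0.29 on day 3. In each of these pairs it was 1 member of 77, against 2.57% of the 30837 genes tested for the first pair and 0.231% of the 26848 for the second. There were 11 pairs of comparisons screened, and the other 9 held 0 such members.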

How the results depend on the processing

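No member that passed the test changed direction under the alternatives run, and in the first experiment 0 members passed under any of them. Medians near 0 did change sign, with the values that follow. The number of members past the test for KO against WT untreated was 5; it was 8 with DESeq2 size factors, 15 in DESeq2, 9 in a fit of only the groups compared, 0 with the background covariate and 2 to 6 when a replicate was left out (2 without WT untreated replicate 1). For IgG against untreated in KO mice it was 2; it was 6 with no filter, 13 in DESeq2, 10 in a fit of only the groups compared, 0 with the covariate and 0 to 4 without a replicate (0 without KO IgG replicate 2). For KO against WT after anti-PD-1 it was 0, with 1 under no filter and 1 in DESeq2, and 0 to 6 without a replicate (6 without WT anti-PD-1 replicate 2). For anti-PD-1 against IgG in WT mice it was 0, and 0 to 5 without a replicate. The causes were not tested. Shares of all genes past the test are not given for these alternatives. A setting that calls more genes of every kind can therefore not be told apart from a change in the members.

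The median over members for anti-PD-1 against IgG in WT mice was 0.24, 0.36 with the background subtracted and 0.07 to 0.27 without a replicate. In KO mice it was 0.10, and −0.06 to 0.16 without a replicate (−0.06 without KO anti-PD-1 replicate 3). For KO against WT after anti-PD-1 it was 0.10, 0.23 with no filter, −0.04 with the background subtracted and −0.01 to 0.23 without a replicate. The interaction had −0.19, −0.31 with the background subtracted and −0.31 to −0.02 without a replicate. On day 1 anti-PD-1 against IgG had −0.09 without anti-PD-1 replicate 4, in place of 0.12. DESeq2 size factors moved the median of all genes by 0.10 for anti-PD-1 against IgG in WT mice and by −0.11 for KO against WT after anti-PD-1, where 39 members were then above 0 and 38 below.

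Tumors that share a replicate number did not deviate together: the correlation of their deviations had a median of −0.00517 over 65 pairs in the first experiment and −0.00712 over 36 pairs in the second, so the numbers were not taken as pairs. With the replicate block 5 members passed for KO against WT untreated and 3 for IgG against untreated in KO mice. No share of all genes is given for that setting. The day 3 median for IgG against untreated with the block was 0.01. Groups of 3 tumors limit what could be called, while the smallest count of a detected member in a library was 38.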
